A study of Homo sapiens with 6 samples.

Results

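YAP binding sites were compared between 2 chromatin immunoprecipitation sequencing (ChIP-seq) libraries of CCLP1, an established human cell line: 1 made with a YAP antibody, and 1 directed against a tagged YAP mutant, Flag-Bio-YAP5SA (YAP5SA below). The members are the peaks of these libraries' deposited lists on chromosomes 1 to 22, namely 3602 of 3867 YAP peaks and 9068 of 9616 YAP5SA peaks, so 12670 of the 22804 peaks deposited for the 3 libraries with a list. The third list, from a TEAD antibody, held 8989 peaks on the same chromosomes and played no part in choosing the members. There are 6 libraries here, 1 per group. In the series' design text there are 8 samples, among which YAP has 3 runs from 2 antibodies. Which of these runs gave the YAP list was not established. The other groups are an unrelated IgG, input DNA and BirA, which the series' design text gives as the control of the tagged protein. These 3 were not used here, so no background from them stands beside any value. The labels state no treatment, time or dose for any group, and they do not say how YAP5SA was expressed or whether the line that carries it is 1 clone. Antibody, tag and form of YAP differ together between the libraries and cannot be told apart.

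YAP is a transcriptional co-activator that the Hippo kinases LATS1 and LATS2 hold in the cytoplasm by phosphorylating it on serines. It has no DNA-binding domain of its own and reaches chromatin mainly through TEAD transcription factors, often at enhancers far from promoters. In YAP5SA the serines that LATS kinases target are changed to alanine, which makes the protein resistant to that control. BirA is a bacterial biotin ligase.

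The lists differed in length and shape before any comparison of position. YAP peaks were wider, with a median width of 310 bp (interquartile range 259 to 363) against 165 bp (140 to 207) for YAP5SA. Scores, the authors' deposited value per peak, began at 50 in both lists, and the medians lay near that floor at 57.7 for YAP and 57.0 for YAP5SA. A score above 100 was listed for 170 YAP peaks (4.72%) and 295 YAP5SA peaks (3.25%), whereas 35.2% of TEAD peaks passed that score. Peaks over 1 kb numbered 120 in the YAP list and covered 27.5% of its sequence. In the YAP5SA list there were 19, which covered 3.91%. Scores served here to rank the peaks of a list, never to compare lists. Read depth is unknown, since the lists hold no counts. With a single library on each side there is no replicate error, and no test between conditions was possible. The intervals given are exact Clopper-Pearson 95% intervals, which treat peaks or bins as independent and cover counting error only.

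The first comparison asked whether the libraries fill the same parts of the genome when peaks are counted in fixed bins of 1 Mb. Of 2889 bins, 1770 held at least 1 peak of each list (61.3%, 59.5 to 63.0). This share depended on bin size and list length: it was 32.6% with bins of 500 kb, 44.6% with the YAP5SA list limited to its 3602 highest scores and 31.1% with the higher-scoring 50% of each list. A further 789 bins (27.3%) held YAP5SA peaks alone, 108 (3.74%) held YAP peaks alone, and 222 (7.68%) held neither. Of the bins without a peak of either list, 164 lay beside or inside peak-free stretches, defined as more than 2.5 Mb without a peak of YAP, YAP5SA or TEAD and extended by 2 Mb to each side. Bins wholly inside such a stretch hold neither list by that definition. These chromosomes hold 23 such stretches. No annotation of the authors' genome build, hg19, was used here to name them.

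Sharing a bin said little about the number of peaks in it. YAP5SA peaks were present in 94.2% of the 1878 bins with a YAP peak and in 78.0% of the 1011 bins without one. Leaving out the peak-free stretches removes bins with 0 peaks of both lists by definition. This in part fixes a rise of the share in bins without a YAP peak. Among the 2607 bins away from the stretches the shares were 94.4% and 93.1%. The mean YAP5SA count there was 3.24 (SD 2.05 over bins) in bins with 0 YAP peaks, 3.39 (SD 2.20) in bins with 1, 3.25 (SD 2.09) in bins with 2 and 3.47 (SD 2.29) in bins with 3. It was 3.73 (SD 2.03) in bins with 4 to 5 and 5 (SD 1.73) in the 15 bins with 6 or more. All of these means but the last lay close together relative to the spread over bins. Mean TEAD counts moved more over the same steps, though unevenly and with a spread larger than each mean. They were 2.38 (SD 3.47) in bins with 0 YAP peaks, 3.53 (SD 5.52) with 1 and 3.17 (SD 4.54) with 2. Bins with 3 had 4.40 (SD 5.50), those with 4 to 5 had 4.39 (SD 5.78), and those with 6 or more had 9.27 (SD 11.3). The last mean rests on 15 bins with a median of 4 TEAD peaks, against a median of 1 in bins with 0 YAP peaks.

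**Figure D1:**
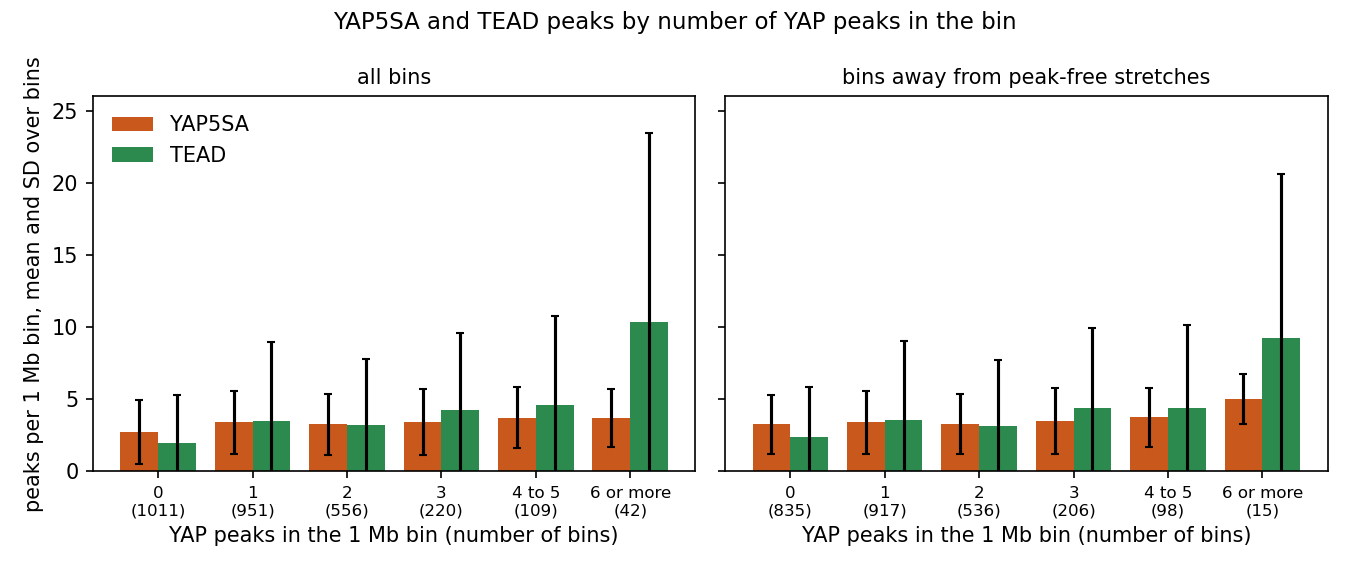
Mean number of YAP5SA and TEAD peaks per 1 Mb bin (vertical axis, peaks) by number of YAP peaks in the bin (horizontal axis, with the number of bins in parentheses), for all 2889 bins and for the 2607 bins away from peak-free stretches. Error bars are SDs over bins, drawn only down to 0. YAP5SA bars stay between 2.71 and 5, while the TEAD bar is tallest in bins with 6 or more YAP peaks.

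Across all bins, the Spearman correlation of YAP with YAP5SA counts was 0.131 and Pearson's r was 0.0797. Away from the peak-free stretches the values were 0.0297 and 0.0549 (2607 bins). Leaving the stretches out removes bins with 0 peaks of both lists, which bears on both values. These are descriptions across bins of a single pair of libraries, and bins share the library, its depth and base composition. Each list stood closer to the TEAD list than to the other: there the Spearman correlation was 0.128 for YAP with TEAD and 0.216 for YAP5SA with TEAD. None of the 3 correlations was strong.

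The counts were also spread differently over bins. The variance of the YAP count was 2.52 times its mean over all bins and 1.16 times away from the peak-free stretches. For YAP5SA the ratios were 1.56 and 1.36, and for TEAD 8.07 and 7.37. YAP thus departed most from an even spread beside the peak-free stretches, where 451 of its 3602 peaks lay, against 3.13% of YAP5SA peaks and 5.86% of TEAD peaks.

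The bins richest in YAP held YAP5SA at 2.6 peaks per bin, beside a mean of 3.14 over all bins. The 10 bins with the most YAP peaks held 193 YAP peaks (5.36% of the list) and 26 YAP5SA peaks (0.287%), and all 10 lay beside a peak-free stretch. The bin at 61 to 62 Mb of chromosome 7 came first, with 40 YAP, 4 YAP5SA and 5 TEAD peaks. The bin at 121 to 122 Mb of chromosome 1 held 37 YAP peaks and 1 YAP5SA peak beside 25 TEAD peaks. On chromosome 21, the bin at 10 to 11 Mb held 26 YAP, 3 YAP5SA and 58 TEAD peaks. In these bins the YAP peaks were broad, with median widths of 504.5, 996 and 519.5 bp.

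The bins richest in YAP5SA held YAP at 1.5 peaks per bin, beside a mean of 1.25 over all bins. The 10 with the most YAP5SA peaks held 122 of them (1.35% of the list), 15 YAP peaks (0.416%) and 64 TEAD peaks (0.712%). First was the bin at 52 to 53 Mb of chromosome 1, with 15 YAP5SA, 0 YAP and 8 TEAD peaks. None of its 15 YAP5SA peaks met a TEAD peak, and 8 of them lay side by side within 23.7 kb, from 52924012 to 52947687. The bin at 196 to 197 Mb of chromosome 3 held 13 YAP5SA, 3 YAP and 2 TEAD peaks, and 6 of the YAP5SA peaks lay within 35.4 kb. At 20 to 21 Mb of chromosome 19 there were 13 YAP5SA peaks, 1 YAP peak and 1 TEAD peak, and the YAP5SA peaks stood in groups of at most 2. TEAD peaks were more numerous than YAP5SA peaks in 1 of the 10 bins: at 13 to 14 Mb of chromosome 12 there were 32 TEAD peaks, 11 YAP5SA peaks, 8 of them at TEAD, and 1 YAP peak, with a site held by both lists.

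To describe bins that leaned to either library, each count was expressed as a share of its own list, after adding 0.5, and shares 4 or more times apart were taken as leaning. Of the 1272 bins with 5 or more peaks over both lists, 56 leaned to YAP (4.40%) and 206 to YAP5SA (16.2%). The YAP-leaning bins held 438 YAP and 112 YAP5SA peaks, and 26 of the 56 lay beside a peak-free stretch. Only 1 of the YAP5SA-leaning bins did. All 206 YAP5SA-leaning bins held 0 YAP peaks and at least 5 YAP5SA peaks. This follows from the rule and the list lengths and is no finding about these bins. At least 5 peaks were required, and even 13 YAP5SA peaks against 1 YAP peak (chromosome 19, 20 to 21 Mb) gave only 3.57-fold. A count of 0 allows up to 3 peaks, and at that limit, with 0.5 added as before, 0 of the 206 would pass the same fold, so their lean is not resolved at these counts. The richest of them, at 52 to 53 Mb of chromosome 1, would then be at least 1.76-fold higher in YAP5SA, if its 15 peaks are separate counts. They may not be, since 8 of them lay within 23.7 kb. In the YAP-leaning group 52 bins held a YAP5SA peak as well. Of the other 4, which held 0 YAP5SA peaks, 2 would pass the fold at the limit of 3 peaks with 0.5 added, and 4 without that addition. The bin at 24 to 25 Mb of chromosome 19, with 7 YAP peaks, would be at least 5.39-fold higher in YAP. That bin lay beside a peak-free stretch and held 0 TEAD peaks. Of its 7 YAP peaks 6 lay within 20.9 kb, so they may not be separate counts. With the YAP5SA list limited to its 3602 highest scores the order turned, to 34 bins leaning to YAP and 15 to YAP5SA, as it did with 5 Mb bins, to 16 and 8. TEAD peaks were present in 85.7% of YAP-leaning bins, 80.6% of YAP5SA-leaning bins and 81.6% of the remaining 1010, with medians of 4, 2 and 2 per bin. Away from the peak-free stretches the shares were 83.3% (30 bins), 80.5% (205) and 81.1% (967). There the median was 2 TEAD peaks per bin in each group, so the higher YAP-leaning median did not hold.

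On the scale of whole chromosomes the lists kept different proportions. YAP made up 28.4% of the peaks of both lists (27.6 to 29.2). Its share was highest on chromosome 7, where 245 YAP and 409 YAP5SA peaks gave 37.5% (33.7 to 41.3). On chromosome 10 it was 37.1% (32.8 to 41.6), from 179 and 303 peaks, and on chromosome 21 it was 34.7% (28.4 to 41.3), from 77 and 145. The lowest share was that of chromosome 13, with 86 and 323 peaks (21.0%, 17.2 to 25.3), followed by chromosome 18 with 62 and 217 (22.2%, 17.5 to 27.6). Chromosome 10 had the fewest YAP5SA peaks per bin of all 22 chromosomes (2.23), yet 4.33 TEAD peaks per bin, above the mean of 3.11.

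Part of this pattern rested on the regions near peak-free stretches and on peaks over 1 kb, called repeat-like regions below. Without them 3126 YAP and 8771 YAP5SA peaks were left, and the overall YAP share was 26.3% (25.5 to 27.1). Chromosome 21 then fell to 22.8% (16.7 to 29.8), below the overall share. Chromosomes 7 (32.5%, 28.7 to 36.5), 10 (32.3%, 28.0 to 37.0) and 5 (30.0%, 26.9 to 33.3) kept intervals above it, while chromosomes 3 (23.3%, 20.7 to 26.1) and 13 (21.1%, 17.1 to 25.5) kept intervals below it. With 22 chromosomes and no allowance for their number, these intervals are a description. In successive blocks of 20 Mb, again without repeat-like regions, the YAP share exceeded the overall share in 8 of 8 blocks of chromosome 7, 6 of 7 of chromosome 10 and 0 of 5 of chromosome 13. Blocks hold the same peaks as the chromosome totals, so they add no separate evidence for these shares. Their intervals were wide. On chromosome 7 the lowest share was 26.8% (14.2 to 42.9) and the highest 42.5% (31.0 to 54.6). Chromosome 3 was mixed, with 3 of 10 blocks above, from 16.0% to 35.1%. Chromosome 5 was uneven along its length. Its share was 42.1% from 40 to 60 Mb (32 YAP and 44 YAP5SA peaks; 30.9 to 54.0) and 39.1% from 60 to 80 Mb (36 and 56; 29.1 to 49.9). From 140 to 160 Mb it was 20.9% (19 and 72; 13.1 to 30.7).

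**Figure D2:**
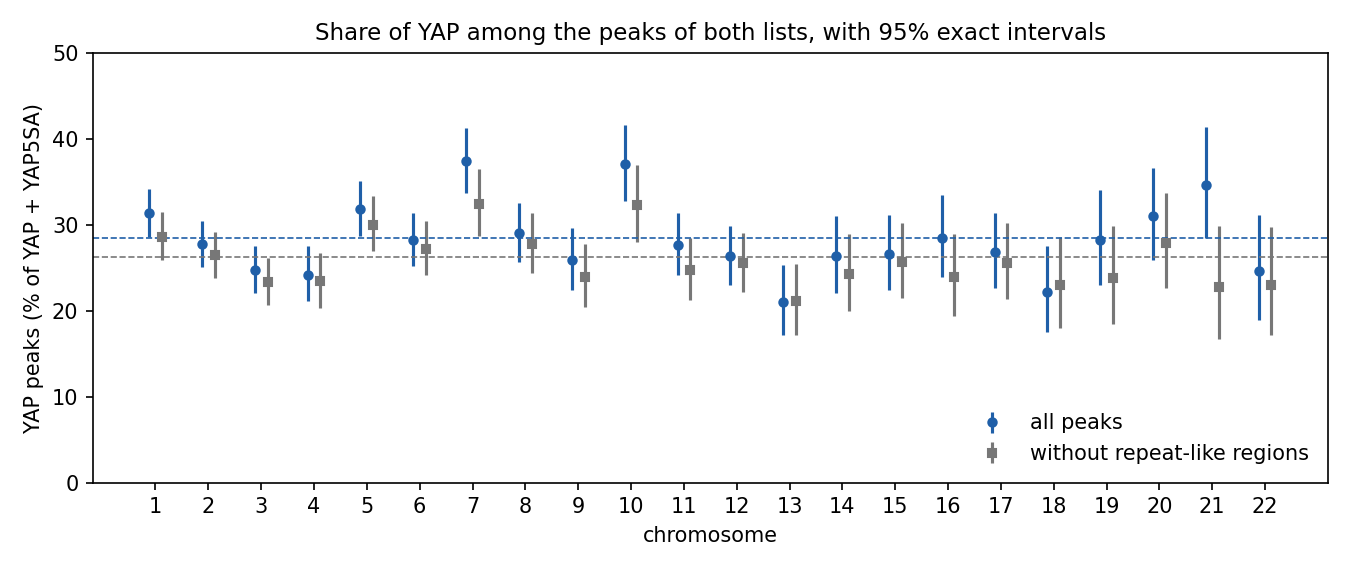
Share of YAP among the YAP and YAP5SA peaks of each chromosome (vertical axis, %), with exact 95% intervals, for all peaks (circles) and without repeat-like regions (squares). Dashed lines mark the overall shares of 28.4% and 26.3%. Chromosomes 7 and 10 lie above both lines in both settings, and chromosome 21 moves from 34.7% to 22.8%.

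The next comparison moved from bins to sites. Only 96 of the 3602 YAP peaks overlapped a YAP5SA peak by at least 1 bp (2.67%, 2.16 to 3.25), and 101 of the 9068 YAP5SA peaks overlapped a YAP peak (1.11%, 0.908 to 1.35). These peaks formed 95 sites, here called shared sites, in 88 of the 1770 bins with both lists (4.97%). The pairs just inside and outside the threshold were few. The smallest overlap was 2 bp, on chromosome 18 between the YAP peak from 26745016 to 26745374 and the YAP5SA peak from 26745373 to 26745623 (coordinates in hg19). The narrowest gap without overlap was 20 bp, on chromosome 4 between the YAP peak from 134657979 to 134658241 and the YAP5SA peak from 134657817 to 134657958. Of the 102 overlapping pairs, 5 shared under 50 bp.

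Most peaks that did not overlap lay more than 10 kb from any peak of the other list. The nearest YAP5SA peak lay within 1 kb of 126 YAP peaks (3.50%), within 10 kb of 335 (9.30%) and within 100 kb of 1754 (48.7%). For an unshared YAP peak the median distance was 108 kb. Seen from YAP5SA, 134 peaks (1.48%) had a YAP peak within 1 kb, 357 (3.94%) within 10 kb and 2095 (23.1%) within 100 kb, with a median of 286 kb for unshared peaks. The lower shares for YAP5SA go with the shorter list they were measured against. All these distances depend on list density, a mean of 3.14 YAP5SA and 1.25 YAP peaks per 1 Mb bin. The distances that density alone would give were not computed, so these values do not show that the libraries avoid each other. Widening the window from overlap to 1 kb added 30 YAP peaks to the 96.

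TEAD peaks, which had no part in choosing the members, were frequent at the shared sites, and in the YAP5SA list at high-scoring peaks as well. A TEAD peak was met by 258 YAP peaks in all (7.16%, 6.34 to 8.05) and by 519 YAP5SA peaks (5.72%, 5.25 to 6.22). Among YAP peaks shared with YAP5SA, 68 of 96 met TEAD (70.8%, 60.7 to 79.7), against 190 of 3506 unshared ones (5.42%, 4.69 to 6.22). Among shared YAP5SA peaks it was 72 of 101 (71.3%, 61.4 to 79.9), against 447 of 8967 (4.98%, 4.54 to 5.46). Outside repeat-like regions the difference was wider for YAP, at 59 of 81 shared peaks (72.8%) and 96 of 3045 unshared ones (3.15%). These intervals do not overlap, but they rest on 1 library of each kind. Most unshared peaks scored low, and TEAD overlap was not particular to sharing among high YAP5SA scores. Of the 200 highest-scoring YAP5SA peaks 150 met TEAD (75%), although only 39 of the 200 were shared. Of the 200 highest-scoring YAP peaks 74 met TEAD (37%), and 26 were shared. Outside repeat-like regions 36 of the top 200 YAP peaks met TEAD (18%) and 19 were shared. For YAP5SA these were 147 (73.5%) and 35. The contrast between the lists depended on the cut-off. Of the 20 highest-scoring peaks of each list 16 met TEAD in both, or 10 for YAP and 14 for YAP5SA outside repeat-like regions.

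TEAD overlap fell off over a short distance from the other library's peak. Of the 30 YAP peaks that lay within 1 kb of a YAP5SA peak without meeting it, 6 met TEAD. From 1 to 10 kb it was 13 of 209 (6.22%), and from 100 to 500 kb 88 of 1688 (5.21%). YAP5SA peaks showed a longer slope, with 10 of 33 (30.3%) up to 1 kb, 25 of 223 (11.2%) from 1 to 10 kb, 61 of 845 (7.22%) from 10 to 50 kb and 230 of 4293 (5.36%) from 100 to 500 kb. From 10 to 1000 kb, TEAD overlap in every step lay between 2.16% and 7.22% for both lists.

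**Figure D3:**
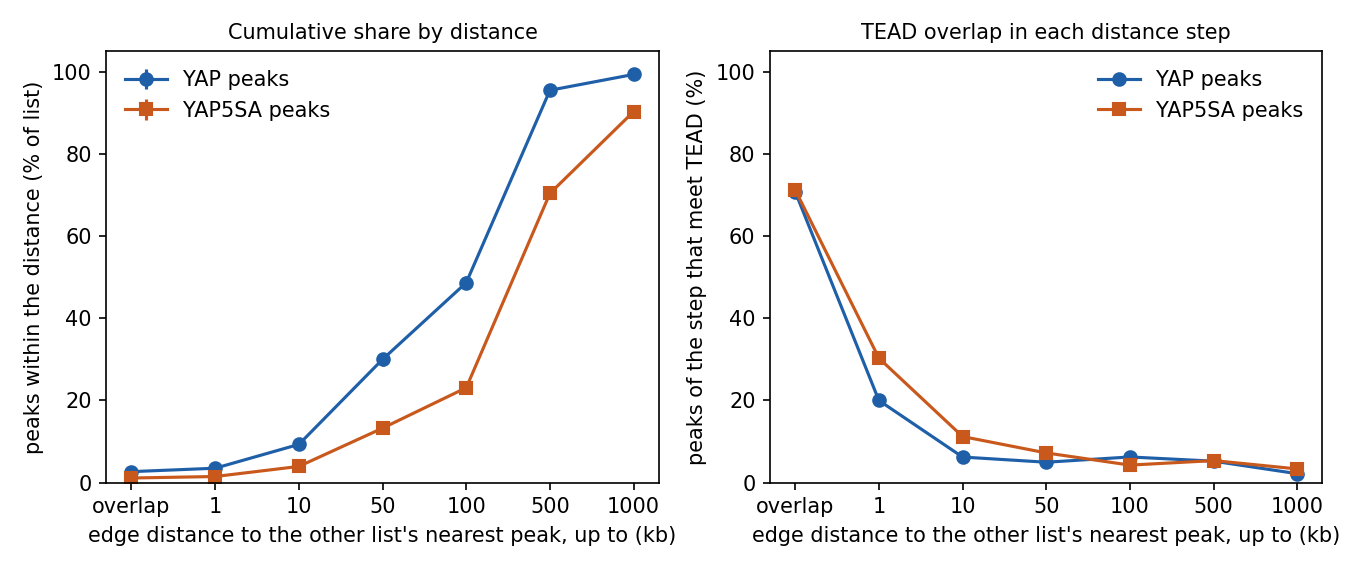
Left, share of YAP and YAP5SA peaks (vertical axis, % of list) whose nearest peak of the other list lies within the distance on the horizontal axis (kb between edges, uneven steps), with exact 95% intervals mostly smaller than the symbols. Right, share of the peaks in each distance step that meet a TEAD peak: about 71% at overlap for both lists, 6 of 30 YAP and 10 of 33 YAP5SA peaks up to 1 kb, and 7.22% or less beyond 10 kb.

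Overlap with the other library was most frequent among the highest scores of each list. With each list divided by score into 10 equal parts, 33 of the 360 YAP peaks in the highest part met YAP5SA (9.17%, 6.39 to 12.6), 15 of the next 360 did (4.17%, 2.35 to 6.78) and 6 of 361 in the lowest part (1.66%, 0.612 to 3.58). For YAP5SA these were 54 of 906 (5.96%, 4.51 to 7.71), 11 of 907 (1.21%, 0.607 to 2.16) and 4 of 907 (0.441%, 0.120 to 1.13). Along the YAP list the intervals of the first and second parts overlapped, and the share did not fall steadily. It was 2 of 360 (0.556%) in the fourth part and 9 of 360 (2.5%) in the ninth. Overlap with TEAD was likewise highest in the first part, at 27.5% for YAP and 30.6% for YAP5SA. Without repeat-like regions the highest YAP part met TEAD in 16.7% of its peaks, and the highest YAP5SA part in 29.5%. Shared YAP peaks were wider as well, with a median of 396 bp against 308 bp for unshared ones, and shared YAP5SA peaks had a median of 296 bp against 164 bp. Among YAP peaks at TEAD these traits were not particular to sharing. There the 190 unshared peaks, 94 of them in repeat-like regions, had a median width of 464.5 bp and score percentile of 83.6. The 68 shared ones had 437.5 bp and 84.4. For YAP5SA peaks at TEAD a difference remained, at 253 bp and 90.1 unshared (447) against 346 bp and 98.1 shared (72).

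**Figure D4:**
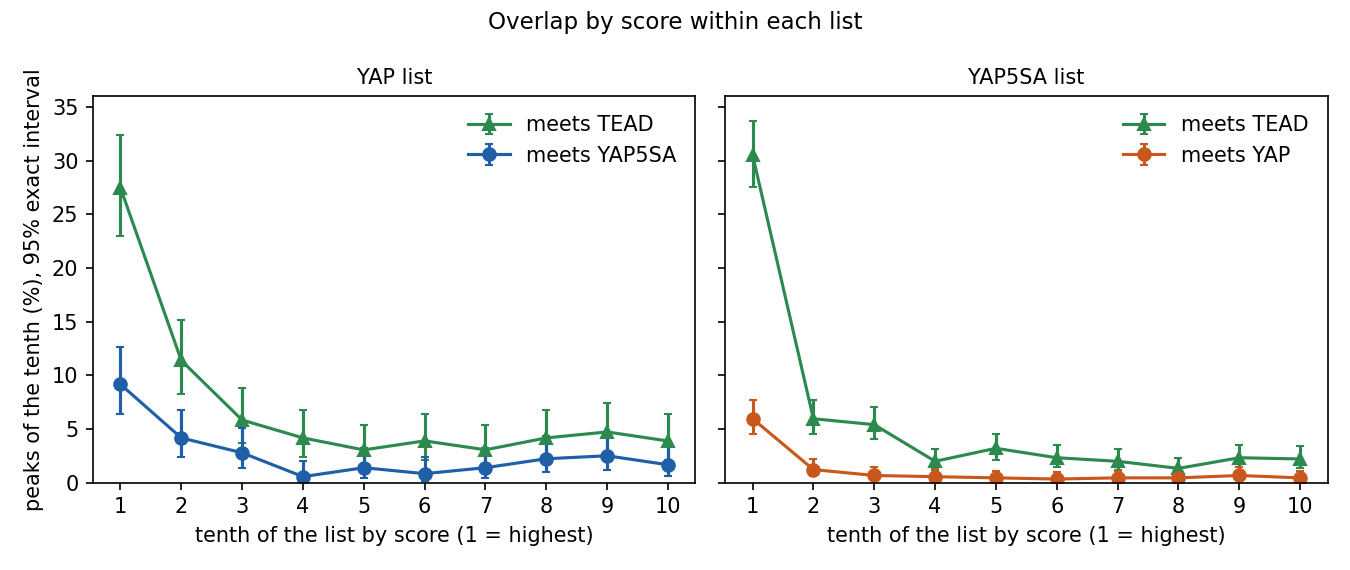
Share of peaks (vertical axis, %, exact 95% intervals) that meet TEAD (triangles) or the other YAP library (circles) in 10 equal parts of the YAP list (left) and the YAP5SA list (right), ordered from the highest scores at 1. In both lists the first part is highest, with 9.17% of YAP peaks meeting YAP5SA and 5.96% of YAP5SA peaks meeting YAP. For YAP peaks meeting YAP5SA its interval overlaps that of the second part.

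Shared sites were placed by the rank of their peaks within each list. Over the 95 sites, the median score percentile was 78.4 in the YAP list and 95.1 in the YAP5SA list, where 100 is the highest score of the list. The lists differ in length, and a percentile depends on how many low-scoring peaks a list holds, so these values do not compare strength between the libraries. The YAP5SA peak belonged to the top 10% of its list at 50 sites, the YAP peak to the top 10% of its own at 34, and both did at 24. The Spearman correlation of the percentiles over the 95 sites was 0.391 and Pearson's r was 0.355, given as a description.

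Within each list, shared peaks at TEAD had a higher median rank than shared peaks without it. At the 67 shared sites with a TEAD peak, the median percentiles were 84.6 for YAP and 98.4 for YAP5SA, and the TEAD peak was in the top 10% of its own list at 62 of them, with a median TEAD score of 1060. At the 28 sites without TEAD the medians were 54.1 and 52.5, close to the middle of each list. Of these 28, 22 lay outside repeat-like regions, where the medians were 33.5 and 47.7, and 8 of the 22 combined lower-scoring peaks of both lists. None of those 22 was in the top 10% of both lists.

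**Figure D5:**
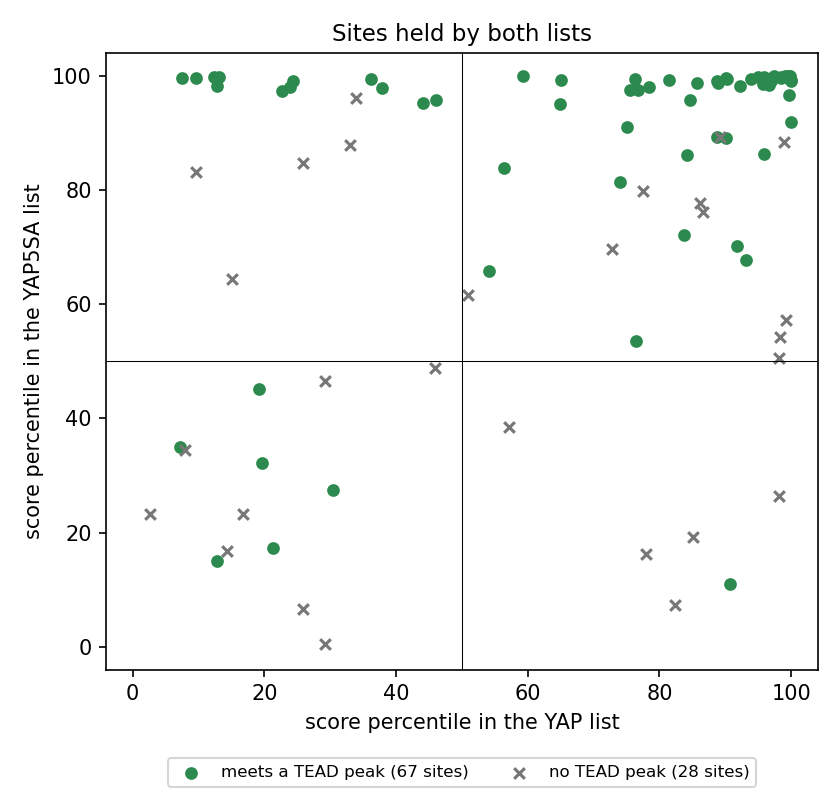
Score percentile of the YAP peak (horizontal axis) and of the YAP5SA peak (vertical axis) at each of the 95 shared sites. Filled circles meet a TEAD peak (67 sites) and crosses do not (28 sites), and lines mark the 50th percentiles. Circles gather along the top edge, over most of the range of YAP percentiles, and crosses are scattered.

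As shared sites were chosen by overlap, their centres had to lie near each other, and the distances are a description only. The centres of the higher-scoring YAP and YAP5SA peaks of a site lay a median of 74 bp apart (interquartile range 27.5 to 156.5). The YAP peak was the wider at 79 of 95 sites, by a median factor of 1.43. The YAP5SA peak lay wholly inside the YAP peak at 43 sites and the reverse held at 6.

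The strongest shared sites, ranked by the lower of their score percentiles, were led by chromosome 5 from 1326344 to 1329164. There the YAP score was 856, the YAP5SA score 3100 and the TEAD score 3100, and the YAP and YAP5SA centres were 25 bp apart. This site counts among the repeat-like regions by its width alone. On chromosome 14 from 62221863 to 62222474 the scores were 528 for YAP, 2562 for YAP5SA and 3100 for TEAD. Next came chromosome 20 from 8996074 to 8996709, with 431, 306 and 1060. On chromosome 12 from 13678802 to 13679908, 2 YAP5SA peaks met 1 YAP peak, and the highest scores were 2152 and 424. The fifth and sixth sites were of another kind. The YAP peaks on chromosome 17 (22244347 to 22263064) and chromosome 2 (92305193 to 92326242) were 18718 bp and 21050 bp wide, the YAP5SA peaks 18508 bp and 16714 bp, and both sites border a peak-free stretch.

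The other 4 of the 10 were narrow sites with TEAD peaks. Chromosome 3 from 76546677 to 76547385 had a YAP score of 293 and a YAP5SA score of 838, with centres 11 bp apart. On chromosome 6 the site from 29110046 to 29110674 had scores of 195 and 275, and the site from 132272299 to 132272872 had scores of 186 and 319. Chromosome 1 from 109045472 to 109046045 had 129 and 615, with centres 2 bp apart. TEAD scores at these 4 sites ran from 1187 to 3100. Of the 10 strongest shared sites, 10 met a TEAD peak.

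Shared sites were scattered singly: 84 bins held 1, and only 4 bins held more. The bin at 98 to 99 Mb of chromosome 1 held 3 shared sites among 7 YAP, 8 YAP5SA and 44 TEAD peaks, and each of the 3 met TEAD. In 2 of them the YAP scores were 107 and 124, beside YAP5SA scores of 317 and 291. The remaining site had a YAP score of 53.6, near the lowest score listed, beside a YAP5SA score of 119. On chromosome 3, 2 bins, at 29 to 30 Mb and 76 to 77 Mb, held 2 each. The bin with 4 shared sites, at 43 to 44 Mb of chromosome 8, lay beside a peak-free stretch. By chromosome, 18 of the 95 sites were on chromosome 1, where 19 of 354 YAP peaks were shared (5.37%). On chromosome 10, 1 of 179 was (0.559%), beside 589 TEAD peaks.

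Strong peaks held by a single library also differed in kind when all regions were counted. The 5 highest-scoring YAP peaks without YAP5SA all lay in repeat-like regions. They included chromosome 5 from 9939 to 11856 (score 2254), chromosome 10 from 42596637 to 42600644 (1981) and a peak of 40.3 kb on chromosome 4 from 49093205 to 49133485 (1909), and 4 of the 5 met TEAD. Of the 5 highest-scoring YAP5SA peaks without YAP none lay in such regions, and their widths ran from 275 to 690 bp. Those on chromosome 9 from 114803981 to 114804577 (score 870), chromosome 3 from 146031184 to 146031873 (774) and from 139477657 to 139478232 (458.5), and chromosome 21 from 17936036 to 17936482 (402) met TEAD. The peak on chromosome 1 from 220826432 to 220826706 (535) met no TEAD peak: the nearest was 381 kb away, and the nearest YAP peak 115 kb. Outside repeat-like regions the 5 highest-scoring YAP peaks without YAP5SA were narrow as well, at 270 to 608 bp. Those on chromosome 11 from 10271237 to 10271506 (score 308) and chromosome 12 from 95206 to 95801 (238) met TEAD, and the others did not.

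Counted from the TEAD side, YAP met 319 of the 8989 TEAD peaks (3.55%) and YAP5SA met 508 (5.65%). They had 76 in common, which is 23.8% of the former and 15.0% of the latter. At 72 of those 76 the YAP and YAP5SA peaks overlapped each other, and at 4 they met the same TEAD peak apart from each other. Outside repeat-like regions, the median TEAD score was 73.6 for the 7859 TEAD peaks that met neither library, 215 for the 93 that met YAP alone, 304 for the 409 that met YAP5SA alone and 998 for the 59 that met both. TEAD peaks that met both were also the widest, with a median of 579 bp against 202 bp for those that met neither.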

How the data were processed

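ChIP-seq peak lists of 3 of the 6 libraries were used. The submitters' processing notes name Bowtie2 and hg19. Each peak has a position, a label starting with MACS and a score, and the scores are the authors' deposited values. They were read, from their range alone, as 10 times the negative log10 of a p-value. The sources used here do not give the caller's version, threshold or control. Lists were deposited per library, and depth is unknown.

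Positions were read as half-open from 0 and are printed from 1. A peak belongs to the 1 Mb bin of its centre, and bins run to the last peak of any list. Leaning bins needed 5 peaks and a 4-fold difference after adding 0.5. Members and lists were chosen with earlier results of these data known. Named regions were the 10 bins with most YAP, YAP5SA or shared sites, the 5 leaning furthest each way, the 10 strongest shared sites and the 5 strongest unshared peaks per list; not every one is printed. The blocks of 20 Mb, the pairs at the overlap threshold and the 5 strongest unshared YAP peaks outside repeat-like regions were chosen after values were seen. No hg19 sequence or gene annotation was used, so no gene, motif or sequence is given. Overlap code recovered 200 of 200 planted overlaps in simulated lists, and 8 counts equalled those of bedtools 2.31.1. Tables were made with pandas 2.3.3, intervals with scipy 1.17.1 and figures with matplotlib 3.10.9, under Python 3.11.15.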

Additional observations from a re-analysis of the deposited data

Results flagged for a closer look

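Peaks outside chromosomes 1 to 22 were left out of every comparison, although both lists hold more of them than the 3 that a count of 0 allows: 265 YAP peaks (6.85% of the list) and 548 YAP5SA peaks (5.70%). Among the peaks left out, 6 of the YAP peaks overlapped a YAP5SA peak and 10 of the YAP5SA peaks overlapped a YAP peak.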

How the results depend on the processing

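For 10 results, 68 values were recomputed; 38 stayed within the 95% interval or, for counts, correlations and percentiles, within 1.5 times, 30 moved and 0 changed sign. A reciprocal overlap of 50% lowered the share of YAP peaks meeting YAP5SA to 1.67% and the reverse to 0.662%. Keeping the higher-scoring 50% of each list gave 3.28% and 1.37%, 6.72% of YAP peaks within 10 kb, 31.1% of bins with both lists, 76.2% of YAP bins with YAP5SA, a Spearman correlation of 0.0557, 32 bins leaning to YAP and 56 to YAP5SA, and 83.1% of shared YAP peaks at TEAD. Limiting both lists to 3602 peaks gave 2.0%, 2.11%, 4.97%, 44.6% and 68.6% for the same shares, 34 and 15 leaning bins, and 83.3% at TEAD. With 500 kb bins 32.6% held both lists, 77.9% of YAP bins held YAP5SA and 99 leaned to YAP5SA; with 5 Mb bins these were 95.2%, 99.6% and 8, with 16 leaning to YAP and a correlation of 0.199. Fewer bins leaned to YAP5SA than to YAP with lists of equal length and with 5 Mb bins, and more did in the other settings. Without repeat-like regions, a setting chosen after seeing the data, 63.9% of bins held both, the correlation was 0.0278 and 114 bins leaned to YAP5SA, since 5 peaks against 0 no longer reach the fold once list totals change. The cause of the other moves was not tested beyond the fewer peaks or other bins each setting makes. No paired analysis was possible because there is only 1 library per group, and no replicate could be left out. Unknown depth limits what the unshared peaks and empty bins can show.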
